A study of Mus musculus with 20 samples.

Results

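The genes described here were 9 interferon-stimulated genes of the mouse intestine, Isg15, Usp18, Ifit1, Ifit2, Ifit3, Oas1a, Oasl2, Irf7 and Igtp, out of 17067 genes tested on the arrays. They were chosen by name, with earlier results of these data known. Every probe carrying one of these names or an older symbol (G1p2 for Isg15) was taken. This gave 11 probes, all of which passed the filter on dim probes. The study hybridised whole intestine from Spdef knockout mice against wild type on 20 two-colour arrays, as 10 pairs of pools, each pair measured in both dye orders. Spdef encodes an ETS-family transcription factor of secretory epithelial cells. The groups were adult small intestine (postnatal day 30, written P30, 2 pairs), adult colon (P30, 3 pairs), fetal small intestine (E18.5, late gestation, 3 pairs) and fetal colon (E18.5, 2 pairs). Each pool held RNA of 2 to 3 littermates. The labels give the genotypes as Spdef ko and wildtype and name neither a strain nor the design of the Spdef allele.

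Interferons are secreted proteins that act through cell-surface receptors, Janus kinases and transcription factors. Type I and type III interferons lead to a complex containing Stat2 and Irf9 that binds interferon-stimulated response elements, whereas the response to interferon-gamma runs mainly through gamma-activated sites. The induced genes encode antiviral effectors, regulators of the same pathway and GTPases that act on intracellular pathogens. In the intestine, interferon-stimulated genes are known for a low steady-state expression that depends in part on commensal microbes, and epithelial cells are known to respond mainly to type III interferon.

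Promoter sequence is shown first because the 9 genes are known for their response to interferon, and the response element is the sequence read by the complex that contains Stat2 and Irf9. RefSeq promoters (GRCm38.p6, 250 bases before to 50 bases after a transcript start) were matched for 8 of the 9 genes, with no entry for Usp18 and 2 entries for Ifit2. The start used for Ifit3 lies inside the RefSeq span of that gene, downstream of its first base, so the Ifit3 window is within the span. The start used for Oas1a also lies inside the span of its gene, so the printed Oas1a window is partly within it. The response element core, GAAANNGAAA searched on both strands with overlapping matches allowed, was found in 5 of the 8 genes and in 1131 of all 32851 promoters of 300 bases, or 3.44%. The windows that hold it are printed 5′ to 3′ on the strand of the gene, with the matched bases in capitals, for chr19:34640765-34640833 (plus strand, Ifit1), chr19:34583353-34583436 (plus strand, Ifit3), chr4:156200855-156200916 (minus strand, Isg15), chr5:120907510-120907565 (minus strand, Oas1a) and chr11:58199502-58199551 (plus strand, Igtp).
Ifit1: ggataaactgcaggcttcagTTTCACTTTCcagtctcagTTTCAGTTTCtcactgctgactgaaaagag
Ifit3: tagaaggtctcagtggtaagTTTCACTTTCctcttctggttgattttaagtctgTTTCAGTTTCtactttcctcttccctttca
Isg15: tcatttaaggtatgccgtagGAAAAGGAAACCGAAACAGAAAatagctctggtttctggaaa
Oas1a: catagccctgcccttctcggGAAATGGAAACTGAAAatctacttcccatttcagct
Igtp: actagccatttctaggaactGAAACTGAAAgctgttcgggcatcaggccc
Ifit1 and Ifit3 each carried 2 separate matches in the reverse orientation, Isg15 carried 3 overlapping matches and Oas1a 2 overlapping ones. The gamma-activated site, TTCNNNGAA, which is its own reverse complement, was found in Oas1a, Igtp and Ifit2, 3 of the 8 genes, and in 2726 of the 32851 promoters (8.3%). Neither sequence was present in the windows of Oasl2 and Irf7, which says only that these letters were not in those 300 bases. Among lists of related genes, the response element core was present in 7 of 8 matched interferon-inducible GTPases (87.5%), 9 of 25 antiviral effectors (36%) and 3 of 14 genes of interferon receptors and signalling (21.4%).

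Spdef itself was lower in the knockout channel on 20 of 20 arrays (log2 knockout over wild type from -4.09 to -1.2), and 39.5% to 71.6% of probes were well above background per array and channel. The brightest probe of each of the 9 genes was well above background on 20 of 20 arrays in both channels, except Ifit1 (19 in each channel) and Usp18 (19 in the wild type channel), and none was saturated. Ifit1, Ifit2 and Ifit3 belong to a multigene family whose similar transcripts may share a probe. The array lists its Isg15 probe at chr17:45870420-45870479 (mm8), 18.4 Mb from the Spdef probe, while RefSeq places the gene at chr4:156199424-156200818 (GRCm38.p6), so the probe's match to the gene rests on its name and accession.

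One slide has to be described before the results. It held the pools labelled as pair 3 of fetal small intestine and pair 1 of fetal colon, and their region markers ran against those labels. Lct, the lactase of small intestinal enterocytes, had a wild type log2 level of 16 and 16.05 in fetal small intestine pairs 1 and 2 but 8.76 in the pool labelled pair 3, against 16.37 in the pool labelled fetal colon pair 1 and 9.09 in pair 2. Hoxb13, a homeobox gene of the hindgut, was at 11.61 in the pool labelled fetal small intestine pair 3 and 6.996 in that labelled fetal colon pair 1, where the remaining fetal pools had 7.04 and 7.06 (small intestine) and 11.21 (colon). Car1, a carbonic anhydrase of colon epithelium, was likewise at 11.1 in the former and 7.52 in the latter. The knockout pools of that slide ran the same way, with Hoxb13 at 11.58 and 6.93. No pool was moved to another group, and the main results that rest on this slide are given with and without it.

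**Figure D1:**
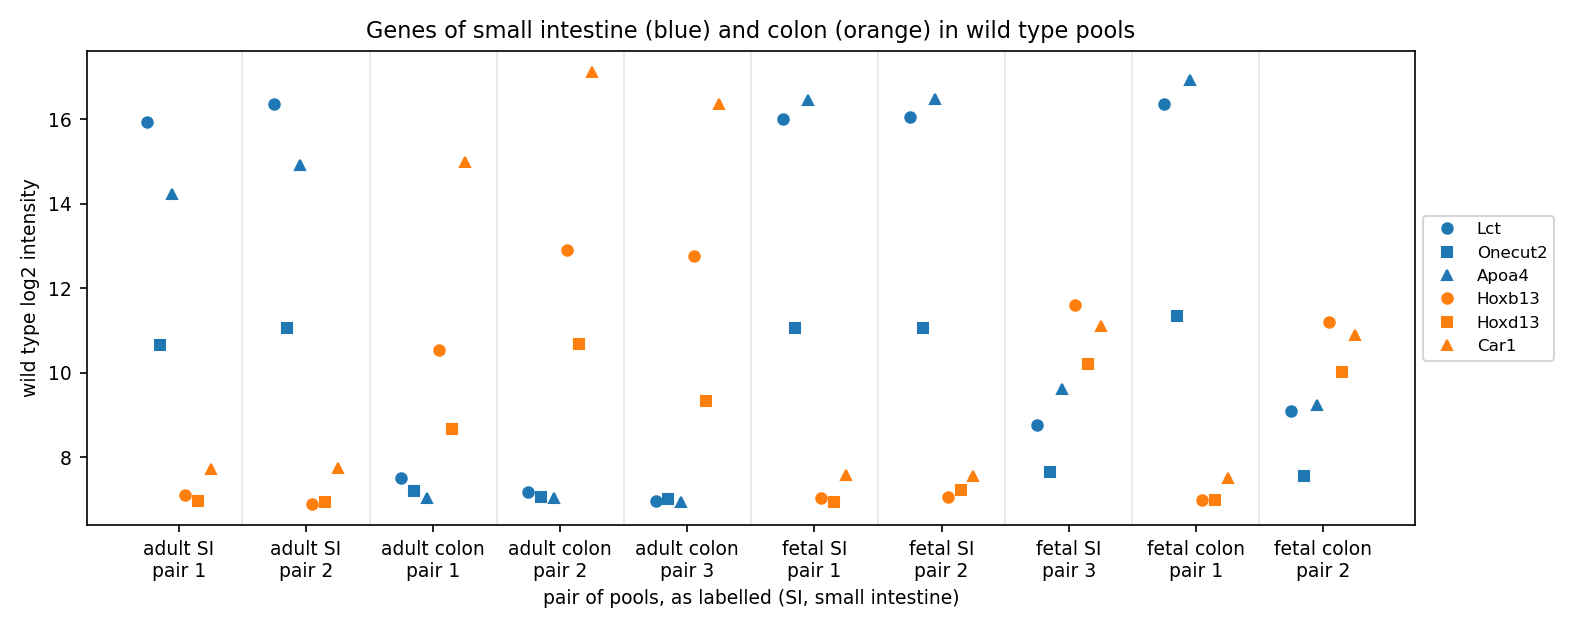
Wild type log2 levels of 3 small intestinal and 3 colonic region markers in the 10 pools, 1 point per pool (mean of both dye orders), grouped by label. The pools labelled as pair 3 of fetal small intestine and pair 1 of fetal colon stand with the other region for each of the 6 markers, for example Hoxb13 at 11.61 and 6.996.

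The comparison of knockout with wild type asked whether loss of Spdef changed these genes. In no group did any of the 9 pass the test, yet within single pairs of pools they differed together and by up to 1.61 on the log2 scale, in a direction that depended on the pair. All 9 were lower in the knockout in adult colon pair 2 and in both fetal colon pairs. All 9 were higher in fetal small intestine pairs 1 and 2. In the other 5 pairs the 9 genes were on both sides of 0.

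Isg15 encodes a ubiquitin-like protein that is conjugated to other proteins after interferon exposure. Its log2 knockout over wild type was -0.33 and -0.056 in the adult small intestine pairs, -0.37, -1.14 and 0.35 in the adult colon pairs, 0.43, 0.46 and -0.036 in the fetal small intestine pairs, and -1.59 and -0.62 in the fetal colon pairs. The lowest values were those of fetal colon pair 1 and adult colon pair 2, and the adult colon pairs lay on both sides of 0.

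Usp18 (chr6:121245906-121270917, GRCm38.p6) encodes the protease that removes Isg15 from its targets and restrains interferon receptor signalling. Its ratios were 0.42 and -0.24 in adult small intestine, -0.077, -1.33 and 0.43 in adult colon, 0.26, 0.33 and 0.046 in fetal small intestine, and -1.10 and -0.38 in fetal colon. As with Isg15, fetal colon pair 1 and adult colon pair 2 were the 2 lowest pairs, and adult colon pair 3 was above 0.

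Ifit1, Ifit2 and Ifit3 encode tetratricopeptide repeat proteins that bind viral RNA or assemble on one another. The 3 genes lie near one another on chromosome 19 (Ifit2 at chr19:34550550-34576534, Ifit3 at chr19:34583119-34588982 and Ifit1 at chr19:34640889-34650009, GRCm38.p6). Ifit1 had ratios of -0.40 and -0.14 in adult small intestine, -0.25, -1.04 and -0.20 in adult colon, 0.33, 0.32 and 0.16 in fetal small intestine, and -1.19 and -0.72 in fetal colon. It was below 0 in all 7 pairs of the other 3 groups and above 0 in all 3 fetal small intestine pairs. Ifit2 showed -0.033 and -0.52 in adult small intestine, -0.52, -1.61 and 0.11 in adult colon, 0.37, 0.41 and 0.16 in fetal small intestine, and -1.30 and -0.044 in fetal colon. Its adult colon pair 2 was the lowest single value of any of the 9 genes. Ifit3 was at -0.00034 and -0.54 in adult small intestine, -0.42, -0.88 and -0.083 in adult colon, 0.46, 0.53 and -0.052 in fetal small intestine, and -1.47 and -0.28 in fetal colon. Second, dimmer probes with the names Ifit2 and Ifit3 gave the same sign and smaller values where the shifts were large. They were at -0.65 and -0.60 in adult colon pair 2, and -0.35 and -0.71 in fetal colon pair 1. The array lists the 2 probes named Ifit3 at places 24 kb apart, further than the RefSeq span of the gene. The second may therefore read another transcript than Ifit3.

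Oas1a (chr5:120896256-120907544, GRCm38.p6) encodes an enzyme that makes oligoadenylate on sensing double-stranded RNA, and Oasl2 (chr5:114896926-114912245) encodes a related protein. Oas1a was the steadiest of the 9, with ratios of 0.29 and 0.023 in adult small intestine, 0.076, -0.12 and 0.10 in adult colon, 0.30, 0.33 and -0.12 in fetal small intestine, and -0.94 and -0.55 in fetal colon. Its fetal colon pairs lay below every other pair. Oasl2 was at -0.023 and -0.28 in adult small intestine, -0.35, -0.65 and 0.066 in adult colon, 0.44, 0.52 and 0.13 in fetal small intestine, and -1.56 and -0.68 in fetal colon. Here too the fetal colon pairs were the 2 lowest and the fetal small intestine pairs the 3 highest.

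Irf7 (chr7:141263183-141266499, GRCm38.p6) encodes a transcription factor that amplifies production of type I interferon. Its ratios were 0.42 and 0.15 in adult small intestine, 0.14, -0.55 and 0.48 in adult colon, 0.25, 0.25 and -0.064 in fetal small intestine, and -0.96 and -0.36 in fetal colon. Igtp (chr11:58199556-58207592), an immunity-related GTPase best known as a target of interferon-gamma, had ratios of -0.74 and -0.28 in adult small intestine, -0.42, -0.93 and 0.19 in adult colon, 0.32, 0.37 and 0.099 in fetal small intestine, and -0.90 and -0.36 in fetal colon. In adult small intestine pair 1 the 2 genes were on opposite sides of 0, with Irf7 and Usp18 the highest of the 9 and Igtp the lowest.

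**Figure D2:**
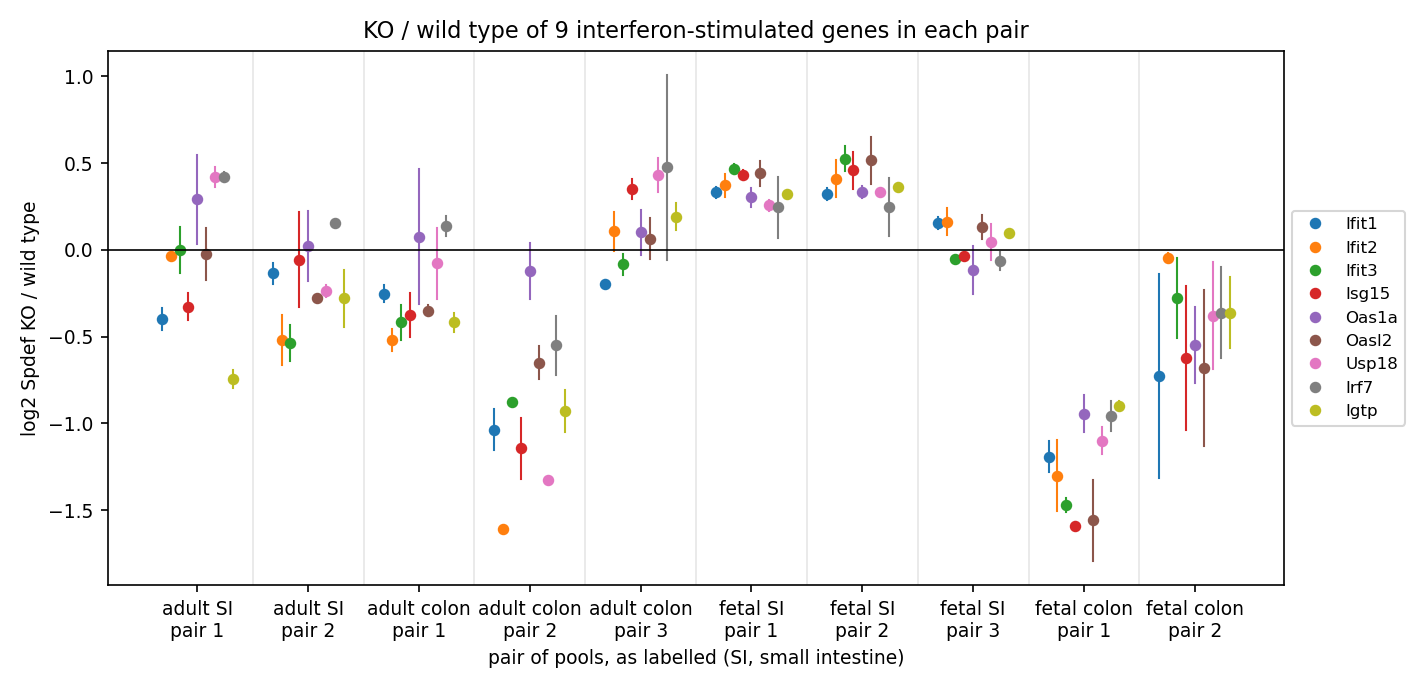
Log2 knockout over wild type of each of the 9 genes in the 10 pairs of pools, 1 point per pair (mean of both dye orders), grouped by tissue and stage. All 9 genes lie below 0 in adult colon pair 2 (-1.61 to -0.12) and fetal colon pair 1 (-1.59 to -0.897) and above 0 in fetal small intestine pairs 1 and 2 (0.245 to 0.526).

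Pair by pair, the median ratio of the 9 genes was -1.19 in fetal colon pair 1 and -0.929 in adult colon pair 2, against -0.38 in fetal colon pair 2. In fetal colon pair 1 all 9 were lower by more than 0.5, a size reached by 1.03% of all genes in that direction, and in adult colon pair 2 it was 8 of 9 against 3.69%. In fetal colon pair 2 it was 4 of 9 against 0.697%. Upward shifts were smaller: the medians were 0.333 and 0.366 in fetal small intestine pairs 1 and 2, where 0.498% of all genes were higher by more than 0.5 in pair 2, among them 2 of the 9. The remaining medians were -0.0227, -0.236, -0.35, 0.107 and 0.0458 in adult small intestine pairs 1 and 2, adult colon pairs 1 and 3 and fetal small intestine pair 3.

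The 2 dye orders of a pair gave the same sign for 9 of 9 genes in fetal small intestine pairs 1 and 2 and in both fetal colon pairs, and for 5 of 9 in adult colon pair 3. In adult colon pair 3 the widest gap was that of Irf7, 1.06 on the log2 scale. Irf7 was at -0.056 with the knockout in Cy5 and 1.01 with it in Cy3, so its mean of 0.48 rests on 1 dye order. The sizes from the 2 dye orders differed most in fetal colon pair 2, where the median of the 9 was -0.136 with the knockout in Cy5 and -0.688 with it in Cy3. Ifit1 had the widest gap there, 1.18 on the log2 scale, where the median gap over all genes was 0.127. In the authors' deposited table, which holds log2 ratios of the same arrays, Ifit1 was at -2.28 in that pair. Irf7, Oasl2, Usp18 and Isg15 were at -1.38, -1.24, -1.18 and -1.07 there. Ifit3, Oas1a, Igtp and Ifit2 were at -0.696, -0.694, -0.6 and -0.132. All 9 were further below 0 than in the ratios given above. The value for fetal colon pair 2 is therefore less certain than that for pair 1. In fetal small intestine pairs 1 and 2 all 9 deposited ratios were further above 0 than those given above. Ifit2 was the highest there, at 0.722 and 0.608.

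None of these differences passed the threshold of 0.05 on the adjusted p (limma, Benjamini-Hochberg over all 17067 genes). The count was 0 of 9 in adult small intestine, where 0.398% of all genes passed, 0 of 9 in adult colon (9.52%), 0 of 9 in fetal small intestine (0.445%) and 0 of 9 in fetal colon (0.287%). At an unadjusted p under 0.05 the counts were 0, 1, 0 and 7 of 9 in that order, where 12.1%, 27.6%, 7.56% and 6.5% of all genes reached it. In fetal colon, limma gave Oasl2 a difference of -1.12 ± 0.22 (SE, n = 2 pairs, adjusted p = 0.147), Isg15 -1.11 ± 0.33 (adjusted p = 0.447) and Ifit1 -0.96 ± 0.20 (adjusted p = 0.174). Oas1a, at -0.75 ± 0.13, had the smallest adjusted p of the 9 there, 0.0901. In adult colon, the smallest was that of Ifit1, -0.50 ± 0.16 (n = 3 pairs, adjusted p = 0.0906), while Ifit2, with the larger difference of -0.67 ± 0.32, had an adjusted p of 0.21. In fetal small intestine all 9 estimates were above 0, with a median of 0.222 and no adjusted p under 0.931. That direction rested on pairs 1 and 2: without them 5 estimates were above 0 and 4 below, with a median of 0.0458, and without the pool labelled pair 3 the median was 0.345, with all 9 above 0.

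The contrasts across groups gave the same count. For the mean over the 4 groups it was 0 of 9, against 1.78% of all genes, with a median of -0.326 and 5 of 9 at an unadjusted p under 0.05 (16.7% of all genes). The difference of the knockout effect between adult and fetal intestine was called for 0 of 9 (1.08% of all genes), with 1 of 9 at an unadjusted p under 0.05. That between small intestine and colon was called for 0 of 9 as well (0.176%), although all 9 estimates were above 0, with a median of 0.663 and 6 of 9 at an unadjusted p under 0.05 (8.28% of all genes). Without the slide whose region markers ran against its labels, the fetal colon median changed from -0.746 to -0.38. The fetal colon value then rests on pair 2 alone, whose deposited ratios were further below 0. In the same setting the fetal small intestine median changed from 0.222 to 0.345 and that of the mean over the groups from -0.326 to -0.15. The adult minus fetal median changed from 0.162 to -0.182, and its sign also turned without adult colon pair 3 (-0.0235). The count was 0 of 9 in each of these. Without fetal colon pair 2 the fetal colon median was -1.19. Leaving out adult colon pair 2 brought 1 of 9 past the threshold in fetal colon and 1 of 9 in the mean over the groups.

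The spread between pairs was large for these genes. They were chosen with earlier results of these data known, so their rank among all genes is a description and not a test. The SD of log2 knockout over wild type over the 10 pairs ran from 0.407 (Oas1a) to 0.689 (Ifit2), larger than in 97.6% to 99.3% of genes, where the median gene had 0.116. Pairs of the 9 genes followed each other over the 10 pairs, with Pearson's r from 0.537 to 0.949 and a median of 0.85 over 36 gene pairs. These are descriptions over points that share arrays, and fetal small intestine pairs 1 and 2 are close to repeat measurements of one another.

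Other genes of the interferon pathway were counted from lists of known function. Of 32 antiviral effectors tested, 30 were lower in the knockout in adult colon pair 2 (median -0.41) and 31 in fetal colon pair 1 (median -0.385), but 5 and 4 in fetal small intestine pairs 1 and 2. Of 11 interferon-inducible GTPases, all 11 were lower in adult small intestine pair 1 and in adult colon pairs 1 and 2, and 0 were lower in fetal small intestine pairs 1 and 2. All 9 genes were likewise lower in adult colon pair 2 and fetal colon pair 1 and higher in fetal small intestine pairs 1 and 2.

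**Figure D3:**
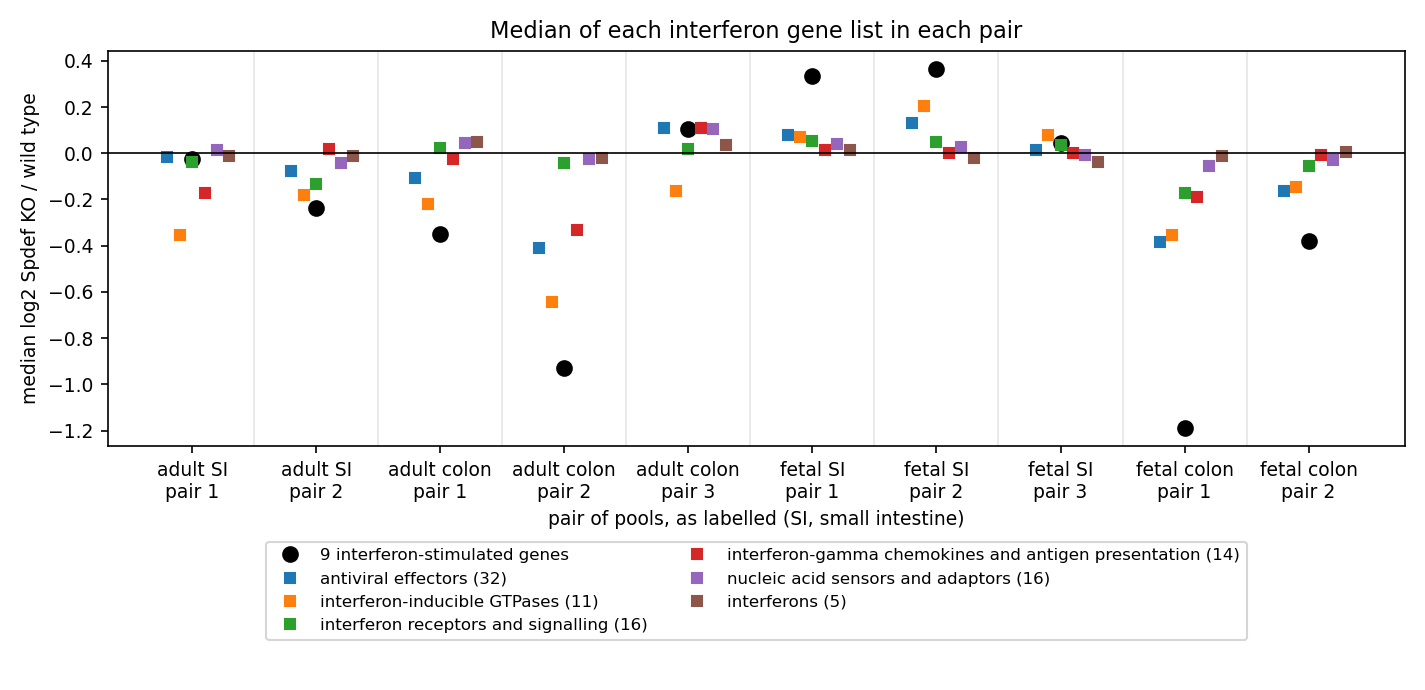
Median log2 knockout over wild type of the 9 genes and of each list of related interferon pathway genes in the 10 pairs of pools. The 9 genes reach -1.19 in fetal colon pair 1, where the antiviral effectors have a median of -0.385.

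By the limma test, 3 of 32 antiviral effectors changed in adult colon: Ifi204, a DNA-binding protein of the innate response, fell by 0.47 on the log2 scale (adjusted p = 0.0193), Ifi27 fell by 0.29 (adjusted p = 0.0332) and Ifitm1, an antiviral membrane protein, rose by 0.30. That share is near the 9.52% of all genes. Of the 11 GTPases, 3 fell in adult colon, Irgm2 by 0.41 (adjusted p = 0.0276), Gbp7 by 0.37 and Gbp6 by 0.35. Socs3, an inhibitor of cytokine receptor signalling, rose by 0.21 as the 1 of 16 genes of receptors and signalling. Of 16 nucleic acid sensors and adaptors, Sting1, the adaptor of cytosolic DNA sensing, rose by 0.42 and Irf5 by 0.23. Of 14 genes of interferon-gamma chemokines and antigen presentation, Cd274 fell by 0.31. The counts of the last 3 lists named were likewise near the 9.52% of all genes. Without the doubted slide, which enters this contrast through the shared estimate of the spread, the counts in adult colon were 0, 1, 0, 0 and 0 in that order of lists.

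In fetal colon 3 genes passed. Rtp4, a receptor-transporting protein with antiviral activity, fell by 1.15 ± 0.14 (adjusted p = 0.0185), from pair values of -1.23 and -1.07, and Ifi27 fell by 0.61 (adjusted p = 0.0284). Irf9, the DNA-binding subunit of the complex that reads the response element, fell by 0.46 ± 0.07 (adjusted p = 0.0389). Rtp4 was above 0 in all 3 fetal small intestine pairs, at 0.498, 0.495 and 0.329. Without the doubted slide none of the 3 passed. In adult small intestine, Cxcl9, a chemokine induced by interferon-gamma, fell by 0.40 (adjusted p = 0.0358), from pair values of -0.492 and -0.297, as the 1 of 14 genes of its list. Irgm2 fell by 0.30 in the mean over the 4 groups (adjusted p = 0.028), and the knockout effect on Ifi27 differed between small intestine and colon by 0.55 (adjusted p = 0.045). Without the doubted slide each of these 3 lists had 0 genes called in these contrasts. Of the 12 interferon genes listed, 5 passed the filter on dim probes, and 0 of 5 passed the limma test in each of the 7 knockout contrasts, with 1 of 5 at an unadjusted p under 0.05 in the mean over the groups and 0 in the other 6.

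The genes most like the 9 in their knockout ratios, by Pearson's r with the mean of the 9 over the 10 pairs, were Mx2 (0.988), Ifih1 (0.972), Bst2 (0.966), Samd9l (0.961), Kazn (0.959) and Irgm1 (0.957). The 9 genes themselves had r from 0.829 to 0.982 with that mean, to which each contributes. In all, 106 other genes had an r above the lowest of them. Mx2, Ifih1, Bst2, Samd9l and Irgm1 were on the lists of interferon pathway genes, and Kazn, which encodes a cytoskeletal protein, was not.

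Markers of the cell types that whole intestine holds were set beside the knockout ratios. In fetal colon pair 1, where the 9 genes had a median of -1.19, the summed intensity of the epithelial list differed by -0.0726 on the log2 scale. That of T cells and intraepithelial lymphocytes differed by -0.0353. The epithelial list was below 0 in every fetal pair, down to -0.317 in the pool labelled small intestine pair 3. It was above 0 in every adult pair, up to 0.211 in colon pair 3. In all 10 pairs the summed macrophage and dendritic cell markers were within 0.13 of 0. The T cell list was lower in both adult small intestine pairs, by -0.291 and -0.231. Igtp, Ifit1, Ifit2, Ifit3, Isg15 and Oasl2 were also lower in both of these pairs, while Irf7 and Oas1a were higher in both. The summed B and plasma cell markers differed most, at 0.423 in adult colon pair 3 and 0.325 in adult small intestine pair 1, and were at -0.15 in adult colon pair 2 and -0.0301 in fetal colon pair 1. The part of these shifts in the ratios was not tested. In bulk tissue, fewer cells of a type and less RNA per cell cannot be told apart.

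The wild type pools alone gave the levels of the 9 genes at each stage. On the log2 intensity scale after scaling between arrays, Isg15 was at 12.67 and 12.52 in adult small intestine, 13.42, 12.83 and 12.86 in adult colon, 10.34, 10.40 and 8.57 in fetal small intestine, and 12.32 and 9.41 in fetal colon. Oasl2 was at 12.8 and 12.76, then 13.6, 13.05 and 13.18, then 9.94, 9.97 and 8.01, and then 12.03 and 9.29 in the same order. For both genes every adult pool was above every fetal pool, by 0.198 for Isg15 and 0.728 for Oasl2 at the nearest points. The share of all genes with such a separation was not counted.

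The other 7 genes overlapped between stages. The pool labelled fetal colon pair 1 was within or above the adult range for all 7, and fetal small intestine pair 2 was within it for Ifit1, Ifit2, Ifit3 and Irf7. Ifit3 was at 12.59 in that pool, above all adult pools (10.91 and 11.31 in small intestine and 11.16, 10.91 and 10.48 in colon), while the other fetal pools had 10.55, 10.58, 7.85 and 8.10. Ifit1 behaved likewise, at 12.05 in that pool against adult levels of 11.84, 11.77, 9.71, 11.93 and 11.22 and fetal levels of 11.28, 11.25, 7.87 and 8.27. Ifit2 was at 8.38 and 8.76 in adult small intestine and at 10.27, 10.48 and 9.70 in adult colon. In fetal pools as labelled it was at 8.36, 8.40 and 7.81 in small intestine and 9.81 and 8.15 in colon. The 7.81 and 9.81 come from the slide whose region markers ran against its labels. In the remaining fetal pools small intestine (8.36 and 8.40) was slightly above colon (8.15). The pool labelled fetal colon pair 1 thus lay above every adult pool for Ifit1 and Ifit3 and within the adult range for Ifit2.

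Oas1a was at 12.5 and 12.6 in adult small intestine, 13.27, 12.97 and 13.02 in adult colon, 11.38, 11.37 and 10.53 in fetal small intestine, and 12.55 and 10.97 in fetal colon. Igtp was highest in adult small intestine, at 13.62 and 13.72, followed by adult colon at 12.51, 12.33 and 11.83. Its fetal levels, 11.16, 11.18 and 9.45 in small intestine and 12.02 and 9.54 in colon, overlapped between tissues. Only 1 fetal pool, that labelled colon pair 1, reached the adult range for these genes. Usp18 had 11.04 and 11.49, then 9.11, 11.21 and 10.31, then 8.93, 8.90 and 7.79, and then 10.18 and 8.03, and Irf7 had 10.64 and 11.39, then 9.23, 11.46 and 10.97, then 9.77, 9.74 and 7.66, and then 10.85 and 7.97, in the order used for Isg15. Usp18, Irf7 and Ifit1 shared a low value in adult colon pair 1, the pool where Isg15, Oas1a and Oasl2 were highest. There Usp18 and Ifit1 were well above background on only 1 of 2 wild type arrays. The deposited ratios of Usp18, Irf7 and Ifit1 were each exactly 0 on 1 array of that pair. These 3 low levels are therefore less certain.

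**Figure D4:**
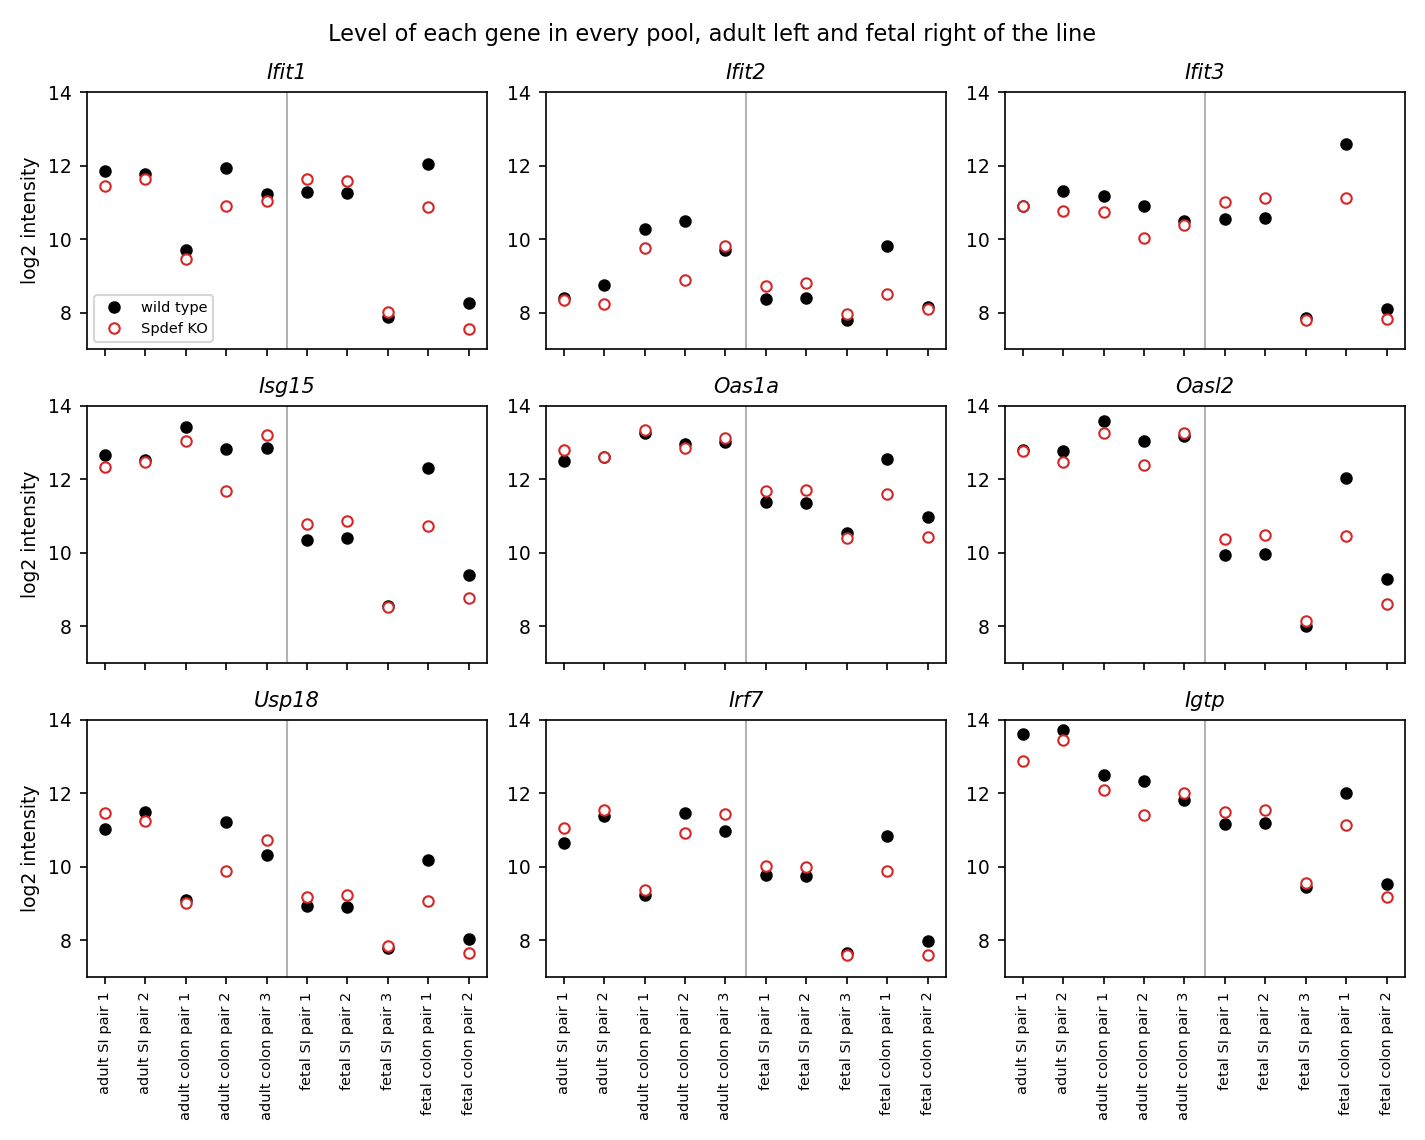
Wild type log2 intensity of each of the 9 genes in the 10 pools after scaling between arrays, 1 point per pool (mean of both dye orders), grouped by tissue and stage as labelled. The pool labelled fetal colon pair 1 is the highest fetal pool for all 9 genes and that labelled fetal small intestine pair 3 the lowest.

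The comparison of adult with fetal wild type intestine addressed development. In the mean over both tissues, 5 of 9 genes were called higher in the adult, where 22.7% of all genes were called in either direction and 11.5% as higher in the adult. Oasl2 rose by 3.21 ± 0.61 on the log2 scale (SE, 9.22-fold, adjusted p = 0.0112), Isg15 by 2.65 ± 0.63 (adjusted p = 0.0233) and Igtp by 2.40 ± 0.56 (adjusted p = 0.0221). Usp18 rose by 2.01 ± 0.58 (adjusted p = 0.0457) and Oas1a by 1.46 ± 0.34 (adjusted p = 0.0217). The 4 that did not pass had estimates of 1.72 ± 0.77 for Irf7 (adjusted p = 0.146), 1.52 ± 0.99 for Ifit1 (0.298), 1.21 ± 0.94 for Ifit3 (0.384) and 0.82 ± 0.36 for Ifit2 (0.142). The median of the 9 was 1.72, beside -0.0361 over all genes.

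Within small intestine, 2 of 9 passed, Oasl2 at 3.79 ± 0.90 (adjusted p = 0.0447) and Igtp at 3.36 ± 0.82 (adjusted p = 0.0485), where 8.86% of all genes were called and 5.06% as higher in the adult. Within colon, 0 of 9 passed by limma, with a smallest adjusted p of 0.0934 and 4 of 9 at an unadjusted p under 0.05, where 9.13% of all genes were called and 6.04% as higher. All 9 estimates were above 0 in each tissue, with medians of 2.3 in small intestine and 1.17 in colon. In colon this held only with fetal colon pair 2, without which 6 were above 0 and 3 below, with a median of 0.2.

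Without the doubted slide, 7 of 9 passed in the mean over both tissues, 4 in small intestine and 6 in colon, where 19.1%, 6.47% and 10.2% of all genes were called. In the mean, Ifit3 (1.65, adjusted p = 0.00967) and Ifit2 (1.1, adjusted p = 0.0391) were the 2 added. Ifit1 remained outside, at 1.61 with an adjusted p of 0.112, as did Irf7, at 1.92 with 0.0868. Only Oasl2 passed in the mean under all 23 settings tried, with adjusted p from 0.000815 to 0.0493. Leaving out adult small intestine pair 1, adult small intestine pair 2 or the pool labelled fetal small intestine pair 3 left 1 of 9, leaving out adult colon pair 3 left 2, and leaving out the pool labelled fetal colon pair 1 gave 8. In small intestine, leaving out any 1 of the adult pools or fetal small intestine pools left 0, and leaving out either fetal colon pool gave 5. In colon, leaving out the pool labelled fetal colon pair 1 gave 4.

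**Figure D5:**
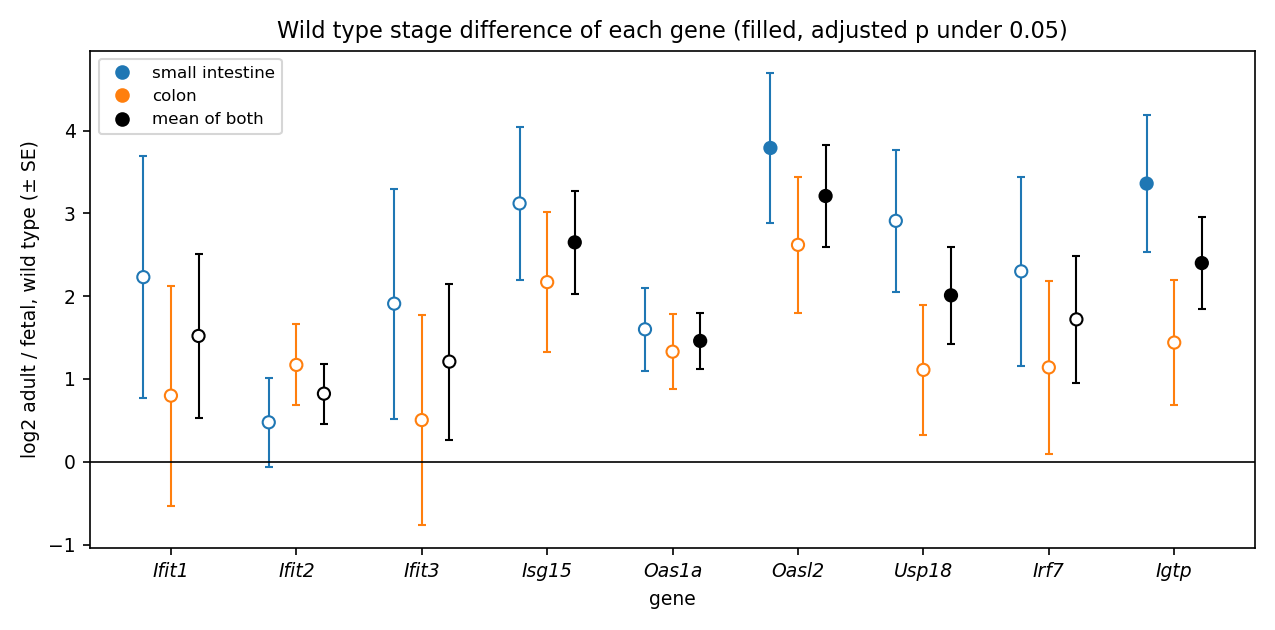
Adult minus fetal difference in wild type log2 intensity of the 9 genes in small intestine, in colon and in their mean, with limma standard errors. All estimates lie above 0, and in the mean they run from 0.823 for Ifit2 to 3.21 for Oasl2.

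Slides differed between stages, so stage and slide could be separated at 1 place only, a slide that held adult colon pair 3 and fetal colon pair 2. There all 9 genes were higher in the adult, Oasl2 by 3.89, Isg15 by 3.45, Irf7 by 3 and Ifit1 by 2.96 on the log2 scale, with Ifit2 the smallest at 1.55. In the knockout pools of the same slide the differences ran from 1.7 to 4.64. Elsewhere stage and slide cannot be told apart. Between fetal wild type pools the levels of single genes ranged over 2 (Ifit2) to 4.74 (Ifit3), wider than in 95.3% to 99.7% of genes, where the median gene ranged over 0.553.

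The lists of related genes were compared by stage in the same way. The share to set beside each count is that of all genes, 22.7% in either direction and 11.5% as higher in the adult. Of 14 genes of interferon-gamma chemokines and antigen presentation, 12 rose in the adult and 0 fell (median 1.76). Ido1, a tryptophan-degrading enzyme, and Cxcl9 were not well above background on any of 10 fetal wild type arrays, and were at least 14-fold and at least 3.38-fold higher in the adult (adjusted p = 2.82e-05 and 0.000554). These bounds set the adult mean against the lowest signal well above background on each fetal array, or the probe's own signal where that was higher. Cxcl10 rose by 1.96 (adjusted p = 0.00229). Of 11 GTPases, 9 rose and 0 fell (median 1.35), among them Irgm2 by 2.53 (adjusted p = 0.00434), Tgtp1 by 1.39 and Gbp6 by 0.91.

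Of 32 antiviral effectors, 10 rose and 2 fell (median 0.946). Oas2 rose by 2.19 (adjusted p = 0.000207), Oas3 by 1.59 (adjusted p = 0.00114) and Zbp1, a sensor of Z-form nucleic acids, by 4.06 (adjusted p = 0.00146). The 2 that fell were Ifitm1, by 1.58, and Ifitm2, by 1.38. They lie outside the naming rule and were named after their values were seen. Of 16 sensors and adaptors, 7 rose and 0 fell, including Tlr3 by 1.03 and Ifih1 by 2.19. Of 16 genes of receptors and signalling, 5 rose and 0 fell, Irf2 by 1.32 (adjusted p = 0.00121), Ifngr1, a subunit of the interferon-gamma receptor, by 1.49, Jak2 by 1.34 and Irf1 by 1.78 ± 0.51 (adjusted p = 0.0431) among them. Stat2 and Irf9 did not pass, with estimates of 0.86 (adjusted p = 0.176) and 0.52 (adjusted p = 0.492). Of the 5 interferon genes tested, 0 passed by limma, with 1 at an unadjusted p under 0.05. Without the doubted slide, 11 of 14, 5 of 11, 17 of 32, 6 of 16, 5 of 16 and 0 of 5 passed in the same order of lists.

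Markers of the cell types of the whole organ were counted by stage as well. Of all genes, 11.5% were called as higher in the adult and 22.7% in either direction. Of 6 B and plasma cell markers tested, 4 rose in the adult, with summed intensities of 22400 to 27400 in adult and 1100 to 1370 in fetal wild type pools, and Cd79a and Ms4a1 were not above background on any fetal wild type array. Of 11 markers of T cells and intraepithelial lymphocytes, 6 rose (3590 to 29700 against 2530 to 3350), and of 8 epithelial markers 6 rose (545000 to 654000 against 227000 to 288000). Of 8 macrophage and dendritic cell markers tested, 1 rose, near the share of all genes. Their summed levels overlapped between stages (4510 to 6100 against 3850 to 13500). Among fetal wild type pools these sums were 11500, 11600 and 3850 in small intestine and 13500 and 4540 in colon, so the pool labelled fetal small intestine pair 3 and that of fetal colon pair 2 were the 2 lowest, as they were for each of the 9 genes. Of 3 erythroid markers tested, 2 fell in the adult (4530 to 19900 against 49600 to 87000). The part of these cell types in the stage differences was not tested.

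Between tissues, few differences were called in the adult. At the fetal stage each group as labelled held 1 pool whose region markers stood with the other tissue. The fetal comparison as labelled therefore could not measure a difference between tissues. In adult wild type pools, 0 of 9 genes differed between colon and small intestine by limma, against 3.15% of all genes, with 1 of 9 at an unadjusted p under 0.05. In fetal pools as labelled, 0 of 9 differed by limma at the adjusted or the unadjusted threshold, against 0.00586% of all genes by the adjusted one. Without the doubted slide, 2 of 9 passed in the adult comparison, against 9.02% of all genes, and 1 of 9 in the fetal one, against 3.02%. In the fetal comparison all 9 colon minus small intestine estimates turned from above to below 0, with a median of 0.804 as labelled and -0.964 without the slide. The gene that passed was Ifit3, at 1.14 as labelled and -2.47 without the slide (adjusted p = 0.0419), and Ifit1 turned from 0.59 to -3 (adjusted p = 0.188). Leaving out either fetal colon pool gave 1 of 9 in the adult comparison. Among related genes in the adult, Oas2 was higher in colon by 1.33 (adjusted p = 0.0183), while Socs3, Cxcl9 and Ido1 had colon minus small intestine values of -2.32, -1.23 and -1.63 and passed the test.

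In wild type levels, the genes most like the mean of the 9 over the 10 pools were Slfn2 (Pearson's r = 0.979), H2-Q2 (0.978), Parp9 (0.969), H2-Q10 (0.959), H2-Q7 (0.958) and Map3k21 (0.957). The 9 genes had r from 0.73 to 0.959, and 923 other genes had an r above the lowest. Slfn2 and Parp9 were on the list of antiviral effectors. H2-Q2, H2-Q7 and H2-Q10 are closely similar class I histocompatibility genes that a probe may not separate. These values describe 10 pools that differ in stage, tissue and slide at once.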

How the data were processed

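Two-colour Agilent whole mouse genome arrays (20 arrays, 41174 probes) were used, with 500 ng of total RNA per labelling, per the labels' protocols. The deposited scanner files hold mean and background intensity per spot and a log10 ratio, written by Agilent Feature Extraction 9.5.3, per the submitters' processing notes. The authors' deposited table holds log2 knockout over wild type (r of 0.946 to 0.998 with the scanner's log ratios, slope 0.991 to 1.01), with 47.8% to 72.2% of values exactly 0. How it was centred is not given in the sources used here. Here intensities were corrected by normexp (offset 50) and loess-normalised within arrays with limma 3.58.1 in R 4.3.3, with weight 0 for control and outlier spots. Ratios were turned to knockout over wild type, and both dye orders of a pair were averaged. Fetal small intestine pairs 1 and 2 differed by less than their dye orders did (variance ratio 0.287, against 0.881 to 3.61 for other pairs of a group) and were counted as 1 replicate, which gave 9 replicates and 5 residual degrees of freedom. Wild type levels were scaled between arrays (Aquantile). After the filter on dim probes 24883 probes were kept, and each gene was represented by its brightest kept probe. Probes were named through RefSeq accession (23374), symbol (6733), older symbol (2919) or the file's own name (8148). One limma fit of all 4 groups, with Benjamini-Hochberg adjustment over 17067 genes, gave each two-sided test. The script was tested on simulated data. No label says that pools came from separate litters, so p-values measure only the spread between these pools. The number of arrays limits the precision. The titles of the fetal colon arrays also contain the word adult, and their stage was taken from their source names.

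The members and lists were chosen with earlier results of these data known. Named were all 9 members, from each other list up to 3 called genes with the smallest adjusted p per contrast, the regulators Stat2, Irf9 and Irf1 (1 further result of this rule is not reported here), and the 6 genes most like the members' mean. Alternatives were other background corrections, signals, scalings and filters, single dye orders, separate replicates, a replicate block, each replicate left out and the doubted slide left out. Fitting all fetal pools as 1 group was added after seeing the data.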

Additional observations from a re-analysis of the deposited data

Results flagged for a closer look

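For 5 genes, every fetal small intestine pair was above 0 and every fetal colon pair below 0 in log2 knockout over wild type. The group means differed by 1.2 for Ifit1, 0.949 for Ifit2, 1.42 for Oasl2, 0.91 for Usp18 and 0.851 for Igtp. These differences within the fetal stage were not tested. The tested difference between small intestine and colon over both stages passed the threshold for 0 of 9 genes (limma), with 6 of 9 at an unadjusted p under 0.05. For 4 genes, every adult small intestine pair was below 0 and every fetal small intestine pair above 0, with adult minus fetal differences of -0.508 for Ifit1, -0.552 for Ifit2, -0.455 for Oasl2 and -0.733 for Igtp. These were not tested within small intestine either, and the adult minus fetal difference over both tissues passed for 0 of 9 genes, with 1 of 9 at an unadjusted p under 0.05. Both patterns include the pools whose region markers ran against their labels. By those markers the pool labelled fetal colon pair 1 stood with small intestine. Grouped so, fetal pairs with a small intestinal profile lay on both sides of 0 for each of the 5 genes, as for Ifit1 (0.33, 0.32 and -1.19). Fetal small intestine pairs 1 and 2 are also close to repeat measurements of one another. The share of all genes with either pattern was not counted.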

How the results depend on the processing

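Counts are genes of the 9 past the limma threshold. Of 277 counts under an alternative, 242 were unchanged or within 1.5 times, 16 were lower and 19 higher. Knockout effect: the count of 0 in adult colon was 1 on arrays with the knockout in Cy3 only. In fetal colon it was 2 with the scanner software's processed signals, 3 with Cy3 only, and 0 to 1 leaving out 1 replicate each. In the mean over the groups it was 1 with fetal small intestine pairs 1 and 2 kept separate, 4 with Cy3 only, and 0 to 1 leaving out 1 replicate. Wild type adult against fetal: the count of 2 in small intestine was 4 with processed signals, 0 without a filter, 0 in the knockout channel, 0 with a replicate block, 4 without the doubted slide and 0 to 5 leaving out 1 replicate. The count of 0 in colon was 2 in the knockout channel, 6 without the doubted slide and 0 to 4 leaving out 1 replicate. The count of 5 in the mean was 3 without scaling between arrays, which moved the median of all genes to -0.858, 3 without a filter, 4 with a replicate block, 5 with all fetal pools as 1 group and 1 to 8 leaving out 1 replicate. Colon against small intestine: the count of 0 was 2 in adults and 1 in fetuses without the doubted slide, and 0 to 1 in adults leaving out 1 replicate. All 9 fetal values turned from above to below 0 without that slide, among them that of Ifit3, to -2.47. The causes were not tested. Same-numbered pairs of different groups deviated together with r of -0.0739 to 0.158 and other pairs with -0.158 to 0.158, so the numbers do not pair the samples. Where 1 replicate was left in a group, it was assumed to vary like the other groups. The strictest filter removed Ifit1 and Usp18. Signal over background limits the second probes of Ifit2 and Ifit3, which were above background on 10 and 16 of 20 wild type channels.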
